A study of Danio rerio with 8 samples.

Results

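The genes described here carry cholesterol out of the lysosome and out of the cell. They were taken from the deposited count table by gene name, from a list of 10 symbols (npc1, npc2, lipa, abca1a, abca1b, abcg1, nr1h3, apoeb, apoea and scarb1), and 9 of the 10 were found among its 24221 genes. No gene is named lipa in the table and lipa is not a member here. The gene with the Ensembl ID ENSDARG00000018529 is called lipf, gastric lipase, in the deposited table, while a reference table of gene names gives that ID the symbol LIPA. Its values are shown beside those of the members under the deposited name, it is counted as no member, and its identity is uncertain. The counts come from GFP-positive cells of the macrophage lineage, isolated by FACS at 6 days post fertilization from larval zebrafish (strain TL) that expressed GFP from the mpeg promoter. Polyadenylated RNA of 4 libraries from rraga mutants was compared with that of 4 libraries from their wild-type siblings. Larvae of both genotypes were raised with the pigment inhibitor PTU and scored as mutant or wild type under a confocal microscope before the sort. The sample titles call the libraries biological replicates. The labels do not name the mutant allele, the number of larvae per library or whether the libraries came from separate clutches. The p-values therefore cover only how these libraries vary, and how far that reflects separate clutches is not known.

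Lipoprotein cholesterol taken up by a macrophage reaches the lysosome as cholesteryl ester. Lysosomal acid lipase, the product of LIPA, frees the cholesterol, the soluble protein NPC2 binds it in the lumen and hands it to NPC1, and the membrane protein NPC1 moves it into the lysosomal membrane, from which other proteins carry it on. When sterols accumulate, oxysterols activate the nuclear receptor LXR alpha, encoded by nr1h3, which in mammals induces the efflux transporters ABCA1 and ABCG1 and the acceptor apolipoprotein E. SR-BI, the product of scarb1, exchanges cholesterol with high-density lipoprotein in both directions. RagA, the product of rraga, is a GTPase that brings the kinase complex mTORC1 to the same lysosomal membrane when amino acids are present. No sequences of these genes are printed here, since only gene names and tables of gene identifiers served as reference.

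Total counts ran from 24940664 to 30911560 per mutant library and from 25530526 to 29147340 per sibling library. Each library carries the number of its column in the table (1, 2, 4 or 5), and libraries with the same number deviated together from their genotype means. Levels are given as CPM, each count divided by the TMM-scaled library size on the usual CPM scale, and fold changes as mutant over sibling. Transcripts of rraga averaged 199 ± 14.3 CPM in mutants and 129 ± 9.97 CPM in siblings (SD, n = 4 each), which does not check the genotype, because the lesion is not known. The deposited table calls this gene rraga, while the reference table of gene names gives its Ensembl ID the symbol RRAGB. Of 25 macrophage lineage markers 2 rose and 14 fell, so that 64% were called by edgeR, against 28.4% of all tested genes (test described below). Their summed level was 13269 to 18255 CPM in mutants and 15969 to 19869 CPM in siblings. That sum includes grn1, which rose and was named after its value was seen. It stood at 2886 ± 2107 CPM in mutants and 208 ± 156 CPM in siblings. mpeg1.1, whose promoter marked the cells, stood at 65.5 ± 23.7 CPM in mutants and 231 ± 13.2 CPM in siblings. mpeg1.2 and spi1b were also named after their values were seen. The paralog mpeg1.2 stood at 61.6 ± 20.04 CPM in mutants and 64.0 ± 17.99 CPM in siblings (edgeR adjusted p = 0.906). spi1b, the other marker that rose, stood at 1428 ± 47.5 CPM in mutants and 685 ± 75.8 CPM in siblings. No marker of the lineage was at 0 in all libraries. In bulk samples such as these, fewer cells of a type and less RNA per cell cannot be told apart. Genes induced by tissue dissociation took 1.83% to 2.28% of mutant counts and 3.02% to 3.25% of sibling counts, and their part in the results below was not tested.

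The cholesterol export and efflux genes did not move as one group. npc2 was 1.74-fold higher in mutants, abca1a was 1.79-fold and apoea 7.58-fold lower, and npc1, nr1h3, abca1b, abcg1, apoeb and scarb1 did not pass the test. All 9 members passed the filter on low counts and were among the 16086 genes put through the quasi-likelihood test of edgeR, with p-values adjusted by Benjamini-Hochberg over all of them and a threshold of 0.05. Thus 1 member rose and 2 fell, or 33.3% of the 9, where 28.4% of all tested genes were called, 14.5% as higher and 13.9% as lower. The median log2 fold change of the members was -0.19, against -0.085 over all tested genes. In 3 members, the same ones, the libraries of the 2 genotypes did not overlap, as in 31.4% of all tested genes. In this fit, which takes no account of replicate number, the share of the members called was therefore close to that of genes in general. With replicate number as a block, scarb1 passed as well (adjusted p = 0.0360, edgeR). That fit called 4 of the 9 members, where 34.4% of all tested genes were called. Without the block 2334 of all tested genes were higher and 2233 lower. Counts scaled by library size alone gave 1659 higher and 3123 lower, and moved the median log2 fold change of all genes to -0.26.

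**Figure D1:**
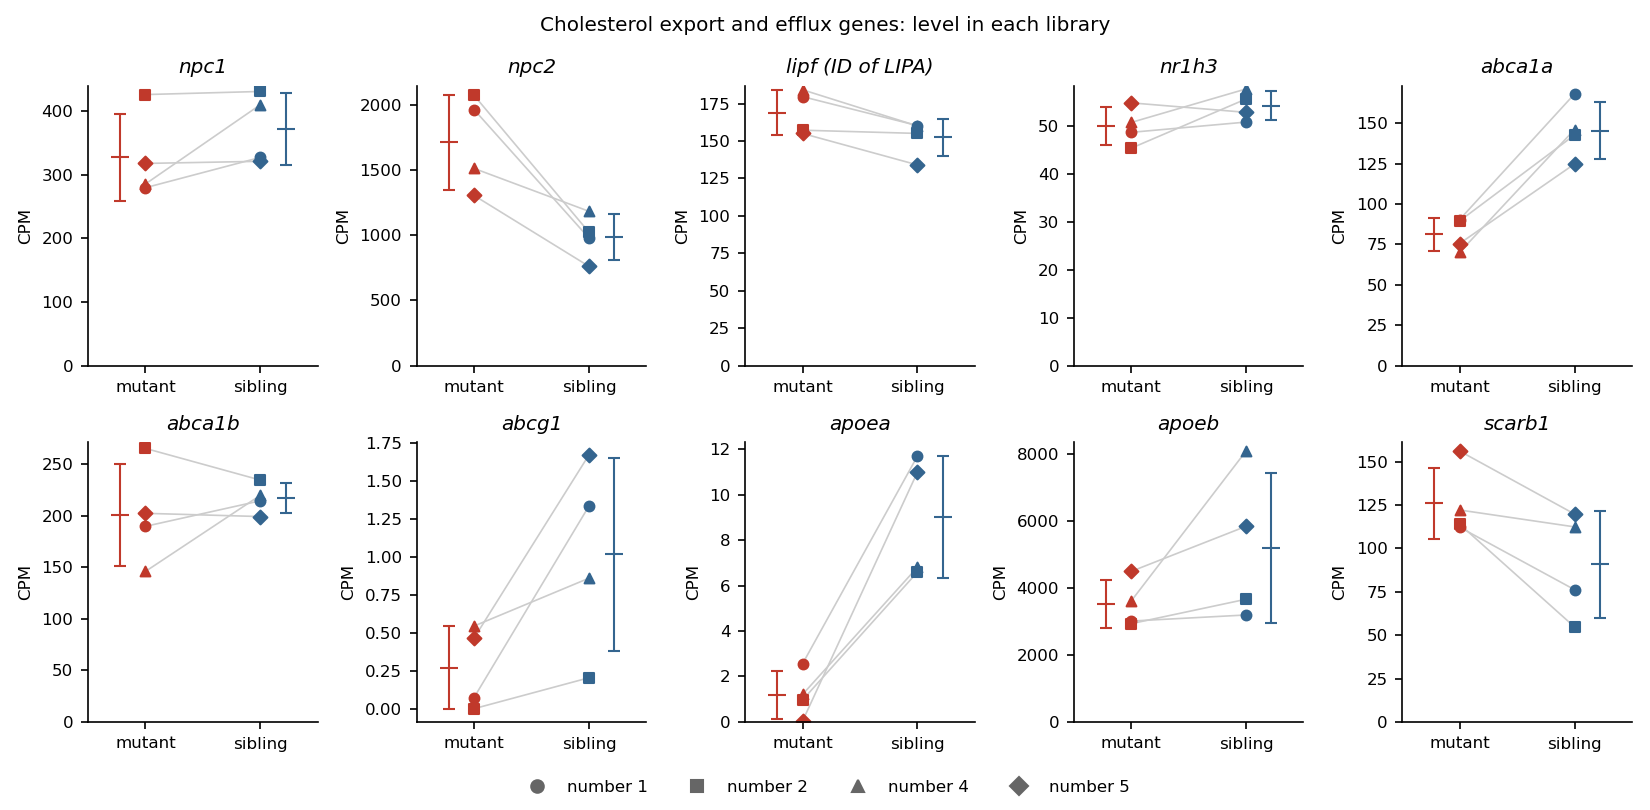
Level of each member and of the gene named lipf in every library (y axes, CPM, each from 0 or just below), with mutants at left and siblings at right. Symbols mark the library number, grey lines join libraries of the same number, and bars give the mean and SD of 4 libraries; npc2 lies higher and abca1a and apoea lie lower in all 4 mutant libraries than in any sibling library.

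The members differed widely in level per length, here CPM divided by the gene length in kilobases. apoeb led with 1658 ± 340.4 CPM per kilobase in mutants and 2454 ± 1061 in siblings, which placed it 35th among the 16086 tested genes in mutants and 15th in siblings. npc2 followed with 1298 ± 276 CPM per kilobase in mutants and 748 ± 132 in siblings, at rank 48 in mutants and 82 in siblings. Next came npc1 with 64.2 ± 13.3 CPM per kilobase in mutants and 73.1 ± 11.05 in siblings, and abca1b with 21.3 ± 5.23 in mutants and 23.0 ± 1.55 in siblings. The lowest was abcg1, with 0.0799 ± 0.0809 CPM per kilobase in mutants and 0.301 ± 0.188 in siblings.

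The order of neighbouring genes was not the same in the 2 genotypes. In siblings apoeb exceeded npc2 in 4 of 4 libraries, by a ratio of means of 3.28, whereas in mutants it did so in 2 of 4 and the ranges of both genes overlapped. In mutants scarb1 lay above abca1a in 4 of 4 libraries, and in siblings abca1a lay above scarb1 in 2 of 4. In mutants the ranges of abca1b and scarb1, of abca1a and nr1h3, and of apoea and abcg1 overlapped. The overlap of apoea and abcg1 rested on mutant library 5 alone, where apoea had 1 count (0.0220 CPM per kilobase). In siblings those of abca1a and scarb1, and of nr1h3 and apoea, did. All other neighbours in the order were separated in the libraries of their genotype. These orders are descriptions and were not tested between genotypes.

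**Figure D2:**
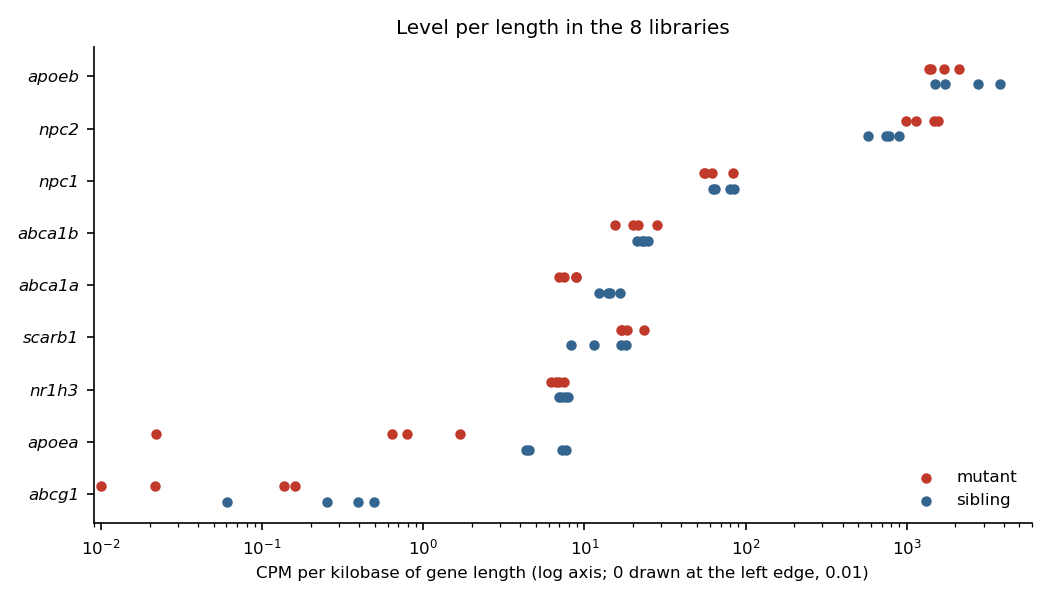
Level per length of the 9 members (x axis, CPM per kilobase on a log axis, with a level of 0 drawn at the left edge), with the 4 mutant libraries above and the 4 sibling libraries below for each gene. In mutants npc2 reaches the range of apoeb, and apoea reaches the range of abcg1 in library 5 alone, with 1 count.

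At the lysosomal exit, the soluble carrier and the membrane transporter differed. npc2 (ENSDARG00000090912, GRCz11 chromosome 17, 43030317 to 43031828, minus strand) had 1964, 2073, 1513 and 1305 CPM in mutant libraries 1, 2, 4 and 5, against 979, 1024, 1184 and 762 CPM in sibling libraries 1, 2, 4 and 5. Every mutant library lay above every sibling library, and libraries 1 and 2 were the highest among the mutants. The log2 fold change was 0.80 with an SE of 0.183 (edgeR adjusted p = 0.0102). The transcript took 0.127% to 0.190% of mutant counts and 0.0844% to 0.118% of sibling counts.

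npc1 (ENSDARG00000017180, chromosome 2, 3823813 to 3866971, plus strand) had 279, 426, 285 and 318 CPM in mutant libraries 1, 2, 4 and 5, against 327, 431, 410 and 321 CPM in siblings of the same numbers. Library 2 was the highest in both genotypes and the ranges overlapped. Its log2 fold change of -0.19 (SE 0.163) did not pass (edgeR adjusted p = 0.438). The gene named lipf (chromosome 12, 17158642 to 17201028, minus strand) stood at 169 ± 15.03 CPM in mutants and 152 ± 12.4 CPM in siblings, with overlapping ranges. Its log2 fold change of 0.15 (SE 0.104) did not pass (edgeR adjusted p = 0.322) and turned to -0.020 with scaling by library size alone.

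The balance of npc2 to npc1 was measured within each library, which removes the scaling between libraries. It rests on the same counts as the results of the single genes above and adds no independent evidence. Per kilobase, npc2 exceeded npc1 27.1-, 18.8-, 20.5- and 15.9-fold in mutant libraries 1, 2, 4 and 5, against 11.5-, 9.17-, 11.1- and 9.16-fold in sibling libraries of the same numbers. On the log2 scale the ratio averaged 4.33 ± 0.323 in mutants and 3.35 ± 0.179 in siblings (SD, n = 4 each), a difference of 0.98. The genotypes did not overlap, and an exact two-sided permutation test over libraries gave p = 0.0286, which no split of 4 against 4 can undercut (0.0429 adjusted over the 3 within-library measures computed). That test exchanges libraries freely. With libraries kept in pairs by number the difference had the same sign in 4 of 4 pairs and an exact p of 0.125, the smallest that 4 pairs allow, so the call was lost.

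The gene of the sterol sensor did not pass the test. nr1h3 (ENSDARG00000098439, chromosome 7, 34414194 to 34448076, minus strand) had 48.7, 45.4, 50.7 and 54.8 CPM in mutant libraries 1, 2, 4 and 5, against 50.8, 55.6, 57.7 and 52.8 CPM in siblings of the same numbers. The ranges overlapped, the coefficient of variation was 7.95% in mutants and 5.60% in siblings, and the log2 fold change was -0.12 with an SE of 0.101 (edgeR adjusted p = 0.418).

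Of the paralogs that encode the transporter ABCA1, which loads cholesterol and phospholipid onto lipid-poor apolipoproteins, abca1a fell. abca1a (ENSDARG00000074635, chromosome 1, 52560549 to 52628407, plus strand) had 90.3, 89.5, 70.08 and 75.5 CPM in mutant libraries 1, 2, 4 and 5, against 168, 143, 146 and 125 CPM in sibling libraries of the same numbers. All mutant libraries lay below all sibling libraries. The log2 fold change was -0.84 with an SE of 0.128 (edgeR adjusted p = 0.00127), the smallest adjusted p of the 9 members.

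abca1b (ENSDARG00000079009, chromosome 14, 6423973 to 6519076, plus strand) lies 7508350 bases from rraga on the same chromosome. It had 190, 265, 146 and 202 CPM in mutant libraries 1, 2, 4 and 5, against 214, 235, 220 and 199 CPM in siblings of the same numbers. The mutant libraries spread on both sides of the narrow sibling range, with a coefficient of variation of 24.6% in mutants and 6.73% in siblings. The log2 fold change of -0.11 (SE 0.165) did not pass (edgeR adjusted p = 0.661), and it was 0.018 without mutant library 4.

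The share of abca1a in the summed abca1a and abca1b level per length compares the paralogs within each library. It uses the same counts as the results of the single genes above and adds no independent evidence. It was 30.7%, 23.9%, 30.9% and 25.8% in mutant libraries 1, 2, 4 and 5, against 42.2%, 36.2%, 38.2% and 36.8% in siblings of the same numbers. It averaged 27.8% ± 3.53 in mutants and 38.3% ± 2.70 in siblings (SD, n = 4 each), with no overlap and a difference of -10.5 percentage points. The exact two-sided permutation test gave p = 0.0286, again the smallest possible (0.0429 adjusted over 3 measures). With libraries kept in pairs by number the share was lower in 4 of 4 pairs, but the call was lost, at an exact p of 0.125, the smallest that 4 pairs allow. The paralogs may share reads, and the sources used here do not say how reads matching both were counted.

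abcg1 (ENSDARG00000063475, chromosome 15, 5028608 to 5074983, plus strand), whose product in mammals passes cholesterol to mature high-density lipoprotein, was close to the limit of detection. It had 2, 0, 14 and 14 counts in mutant libraries 1, 2, 4 and 5, against 41, 6, 22 and 51 counts in sibling libraries of the same numbers. The 0 of 24940664 counts in mutant library 2 allows up to 0.132 CPM (3 counts, counting error only). The ranges overlapped because of sibling library 2, and the log2 fold change of -1.88 (SE 0.955) did not pass (edgeR adjusted p = 0.178). Together abca1a, abca1b and abcg1 summed to 280, 355, 217 and 278 CPM in mutant libraries 1, 2, 4 and 5, against 384, 377, 367 and 326 CPM in siblings of the same numbers, and mutant library 2 lay within the sibling range.

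**Figure D3:**
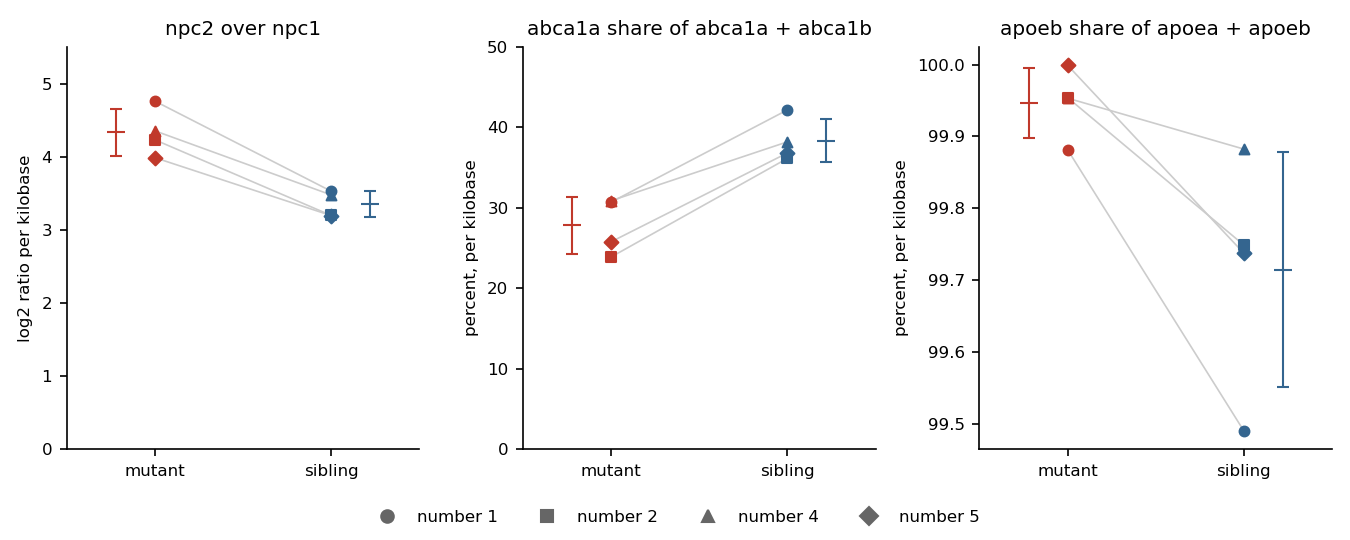
The 3 within-library measures, from left to right the log2 ratio of npc2 to npc1, the share of abca1a in abca1a plus abca1b and the share of apoeb in apoea plus apoeb (percent; this last axis starts above 0), with mutants left of siblings, symbols for library numbers and bars for mean and SD (n = 4). The first 2 measures separate the genotypes, and the third overlaps in the libraries with the extreme values.

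apoeb and apoea encode apolipoprotein E, which carries cholesterol away from the cell. apoeb (ENSDARG00000040295, chromosome 16, 23960744 to 23963461, plus strand) had 3009, 2931, 3603 and 4490 CPM in mutant libraries 1, 2, 4 and 5, against 3191, 3661, 8082 and 5837 CPM in siblings of the same numbers. Sibling libraries 4 and 5 lay above all mutant libraries, and sibling libraries 1 and 2 lay within the mutant range. The coefficient of variation was 20.5% in mutants and 43.2% in siblings. The log2 fold change of -0.57 (SE 0.288) did not pass (adjusted p = 0.179), nor with replicate number as a block (log2 fold change -0.48, SE 0.170, adjusted p = 0.0696, both from edgeR). apoeb supplied 49.3% to 68.0% of the members' summed counts in mutants and 63.6% to 79.1% in siblings. apoeb lies inside the gene nbn on the same strand, and all nbn counts together come to 0.567% of the apoeb counts.

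apoea (ENSDARG00000102004, chromosome 19, 10855158 to 10859694, plus strand) had 70, 22, 31 and 1 counts in mutant libraries 1, 2, 4 and 5, against 359, 194, 174 and 335 counts in siblings of the same numbers. That is 1.19 ± 1.04 CPM in mutants and 9.03 ± 2.70 CPM in siblings (SD, n = 4 each), with no overlap. The fitted log2 fold change was -2.92 with an SE of 0.761 (edgeR adjusted p = 0.0183), and without mutant library 2 the call was narrowly lost (log2 fold change -2.83, adjusted p = 0.0505). The size of the difference was less certain than its direction. Over the 17 alternatives the log2 fold change ran from -3.80 (limma-voom) to -2.47, and it was -3.63 without mutant library 1. Mutant library 5, with 1 count, was the lowest.

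Markers of enterocytes and the yolk syncytial layer, tissues that secrete lipoproteins, moved the same way as apoea. Their summed level was 164.5, 132, 298 and 42.8 CPM in mutant libraries 1, 2, 4 and 5, against 603, 976, 388 and 653 CPM in sibling libraries of the same numbers. Of 15 such markers 8 fell and 0 rose (edgeR; at an unadjusted p under 0.05, 12 fell and 0 rose, and DESeq2 and limma-voom called 0 higher), and none was at 0 in all libraries. By edgeR 53.3% of these markers were called, against 28.4% of all tested genes. Mutant library 5 was the lowest for these markers and for apoea, while the highest mutant library was 4 for the markers and 1 for apoea. Among siblings the orders differed, as library 2 was the highest for the markers (976 CPM) and the lowest for apoea (6.60 CPM). Liver markers summed to 138 to 384 CPM in mutants and 216 to 1274 CPM in siblings, with 1 of 16 tested markers higher and 3 lower (25% called). With replicate number as a block 5 of the enterocyte and yolk syncytial markers fell, and 1 liver marker rose and 0 fell (edgeR). Without the block 11 liver markers were lower at an unadjusted edgeR p under 0.05, and 7 were lower by DESeq2 and 2 by limma-voom. Of all 16086 tested genes DESeq2 called 2858 higher and 2482 lower, and limma-voom 2438 higher and 2429 lower. The block fit called 17.8% of them higher and 16.6% lower. Their share at an unadjusted p under 0.05 is not given here. The most abundant enterocyte and yolk syncytial markers were apoa1b, at 95.2 ± 80.01 CPM in mutants and 337 ± 265 CPM in siblings (edgeR adjusted p = 0.0710), and apoa4b.1, at 19.3 ± 13.02 CPM in mutants and 76.7 ± 18.9 CPM in siblings (edgeR adjusted p = 0.0382, and 0.0587 with the block). The part of either tissue in the difference of apoea was not tested.

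Within the apolipoprotein E pair, apoeb made up 99.9% ± 0.0486 of the level per length in mutants and 99.7% ± 0.164 in siblings (SD, n = 4 each). The exact two-sided permutation test of this share gave p = 0.0571 (0.0571 adjusted over 3 measures), and the shares of mutant library 1 and sibling library 4 were nearly equal, at 99.88% each.

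scarb1 (ENSDARG00000101557, chromosome 10, 44699734 to 44748270, plus strand) had 112, 114, 122 and 156 CPM in mutant libraries 1, 2, 4 and 5, against 76.2, 54.7, 112 and 120 CPM in siblings of the same numbers. Library 5 was the highest in both genotypes, and the top of the sibling range lay within the mutant range. The log2 fold change of 0.47 (SE 0.237) did not pass (adjusted p = 0.171), whereas with replicate number as a block it was 0.53 (SE 0.151) and passed (adjusted p = 0.0360, both from edgeR).

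For a view pair by pair, each mutant library was set against the sibling library of its number on the log2 scale (0.1 CPM added to both). These signs were not tested, and the share of all tested genes with the same sign in 4 of 4 pairs is not given here. npc2 was higher in 4 of 4 pairs, by 0.35 to 1.02, and scarb1 in 4 of 4, by 0.12 to 1.06. abca1a was lower in 4 of 4 pairs (-1.06 to -0.67), as were apoea (-6.38 to -2.15), apoeb (-1.17 to -0.085), abcg1 (-3.05 to -0.58) and npc1 (-0.52 to -0.015). The npc1 differences in pairs 2 and 5, at -0.016 and -0.015, were close to none. abca1b was higher in 2 pairs and lower in 2, and nr1h3 higher in 1 and lower in 3. Pair 4 gave the smallest difference for npc2 and scarb1 and the lowest log2 difference for abca1a, abca1b, apoeb and npc1. With replicate number as a block, edgeR called 4 members (npc2, scarb1, abca1a and apoea), where 34.4% of all tested genes were called, 17.8% as higher and 16.6% as lower.

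**Figure D4:**
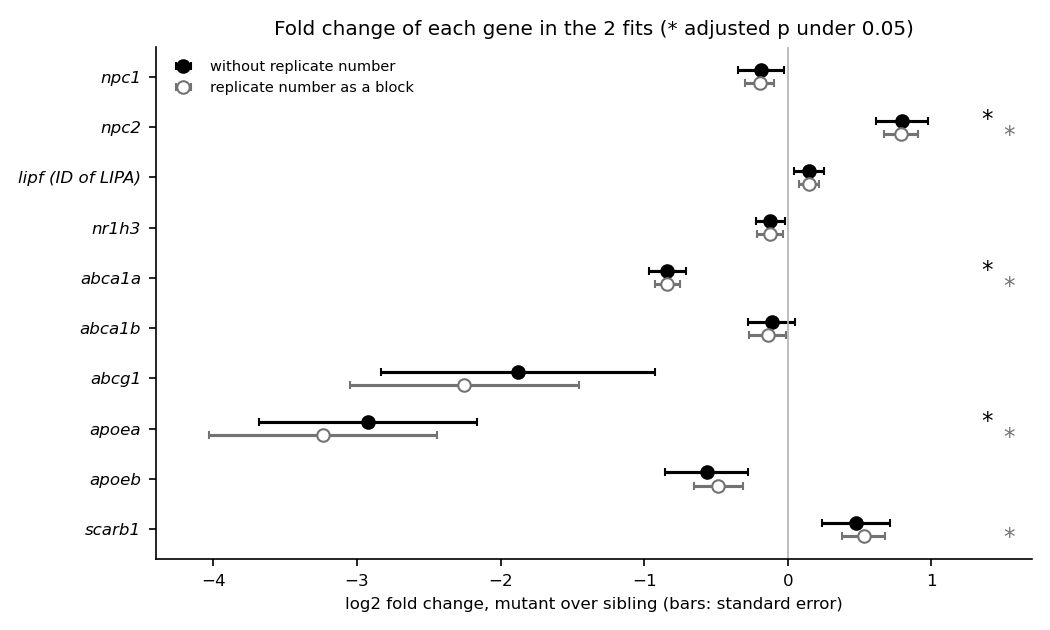
Log2 fold change, mutant over sibling, of the 9 members and the gene named lipf (x axis; bars, standard error), from the fit without replicate number (filled) and with it as a block (open). Asterisks at right mark adjusted p under 0.05 in each fit; scarb1 passes only in the block fit.

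Of 26 tested genes of intracellular sterol transfer and sensing 6 rose and 2 fell, so that 30.8% were called, close to the 28.4% of all tested genes, and the balance of rises and falls was not tested. They had a median log2 fold change of 0.16 against -0.085 over all tested genes. lamp2, a lysosomal membrane glycoprotein gene whose human product binds cholesterol, stood at 1545 ± 193 CPM in mutants and 475 ± 77.1 CPM in siblings. scarb2c, of the family of the lysosomal membrane protein LIMP-2, stood at 458 ± 85.5 CPM in mutants and 176 ± 31.6 CPM in siblings. osbpl3b, for a lipid transfer protein of the oxysterol-binding family, stood at 74.7 ± 1.07 CPM in mutants and 26.4 ± 2.00 CPM in siblings. Its paralog osbpl3a, named after its value was seen, did not pass (log2 fold change -0.61, SE 0.291, edgeR adjusted p = 0.154). stard3, for a sterol-binding protein of the late endosome membrane, stood at 36.5 ± 9.69 CPM in mutants and 16.7 ± 2.42 CPM in siblings. The adjusted p of these 4 rises ran from 1.1e-05 to 0.00254 in edgeR. The 2 genes that fell, named after their values were seen, were tmem97, whose human product binds NPC1 (1.76 ± 0.437 CPM in mutants and 4.75 ± 1.03 CPM in siblings), and osbpl5, of the oxysterol-binding family (5.21 ± 0.656 CPM in mutants and 10.1 ± 2.30 CPM in siblings).

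Genes that act with LXR showed no common direction. Of 27 tested partners, targets and co-regulators 3 rose and 2 fell, with a median log2 fold change of -0.029. So 18.5% were called, a smaller share than the 28.4% of all tested genes. The lipid-sensing receptor gene pparg stood at 139 ± 20.3 CPM in mutants and 75.5 ± 18.9 CPM in siblings, and med1, a Mediator subunit gene, at 11.5 ± 2.95 CPM in mutants and 4.01 ± 0.906 CPM in siblings. ch25h, for the enzyme that makes 25-hydroxycholesterol, stood at 34.3 ± 10.8 CPM in mutants and 18.7 ± 6.04 CPM in siblings (log2 fold change 0.87, SE 0.274, adjusted p = 0.0403, edgeR). That call was lost under 8 of 17 alternatives, with adjusted p up to 0.108. mylipa, a gene for the ubiquitin ligase that targets the LDL receptor, fell (log2 fold change -0.76, SE 0.200), a call lost without sibling library 4 (edgeR adjusted p = 0.0515). Its more abundant paralog mylipb, named after its value was seen, did not pass (log2 fold change -0.11, SE 0.179, edgeR adjusted p = 0.708). smpdl3b also fell (-1.57, named after its value was seen). The number that fell was 4 with the replicate block, 4 without mutant library 5 and 1 without sibling library 1 or 4. The block fit called 16.6% of all tested genes as lower.

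Of 33 tested apolipoproteins, lipoprotein receptors and remodelling enzymes other than the members 5 rose and 9 fell, so that 42.4% were called, against 28.4% of all tested genes, with a median log2 fold change of -1.29. With replicate number as a block 4 of the 33 rose and 5 fell, where 34.4% of all tested genes were called, 17.8% as higher and 16.6% as lower. Without mutant library 1, 4 rose and 5 fell, and without sibling library 1 or 5, 4 rose and 4 fell. Of the 9 that fell, 5 are also on the enterocyte and yolk syncytial list (apoa1a, apoa4b.1, apoa4b.2, apoa4b.3 and apobb.1), whose summed levels are given above. apoc1, an apolipoprotein gene outside that list, stood at 43.7 ± 7.09 CPM in mutants and 169 ± 62.1 CPM in siblings. The rises included lipg for endothelial lipase (60.4 ± 15.3 CPM in mutants and 18.3 ± 5.88 CPM in siblings), lrpap1 for the chaperone of LDL receptor family proteins (39.1 ± 7.45 CPM in mutants and 15.5 ± 2.57 CPM in siblings) and lcat for the enzyme that esterifies cholesterol on lipoproteins (7.29 ± 2.51 CPM in mutants and 1.56 ± 0.920 CPM in siblings). The adjusted p of apoc1 and of these named rises ran from 5.3e-04 for apoc1, which fell, to 0.00428 for lcat in edgeR.

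Of 7 tested genes of cholesterol esterification and ester hydrolysis 1 rose and 0 fell (edgeR; at an unadjusted p under 0.05 also 0 fell, as by DESeq2 and limma-voom). So 14.3% were called by edgeR, against 28.4% of all tested genes. The gene that rose was soat1, which encodes the enzyme that esterifies surplus cholesterol in the endoplasmic reticulum. It stood at 23.5 ± 5.51 CPM in mutants and 8.42 ± 3.04 CPM in siblings, with no overlap (log2 fold change 1.48, SE 0.267, adjusted p = 0.00311, edgeR).

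**Figure D5:**
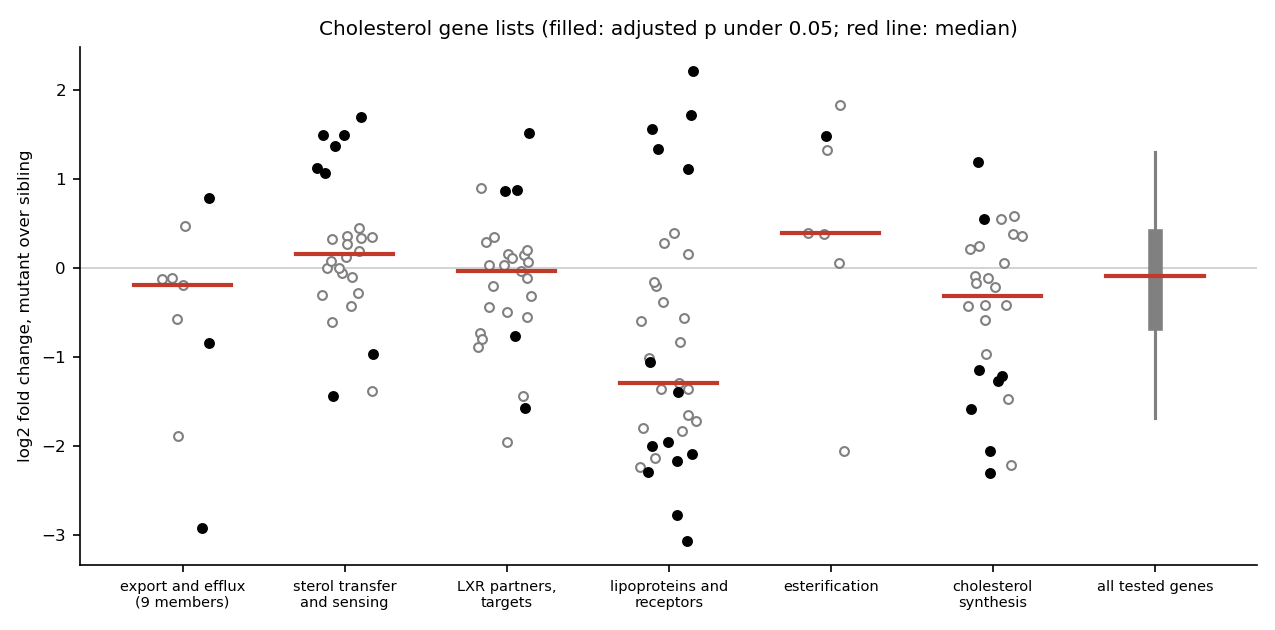
Log2 fold change, mutant over sibling (y axis), of the tested genes of each cholesterol list; filled points have an adjusted p under 0.05 and red lines are medians. For all tested genes the thick bar spans the 25th to 75th and the thin line the 5th to 95th percentile; the lipoprotein list has the lowest median, -1.29.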

How the data were processed

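The authors deposited unnormalized counts of reads per gene (8 libraries, Ensembl IDs). The submitters' processing notes list featureCounts 1.5.0, StringTie 1.3.3b and HISAT2 2.0.5 with the build GRCz11, giving no order. The sources used here give no strand setting. Gene lengths (in bases) and coordinates are as deposited. 16 columns of other per-library values were not used. Columns were assigned to a genotype by name. Column numbers (1, 2, 4 and 5) do not match the titles' numbering, so columns were tied to a genotype and not to a single titled sample. Same-numbered libraries correlated at 0.180 to 0.412 in their deviations from genotype means (others -0.251 to 0.0119), so the numbers were taken to pair libraries. This pairing comes from the column names and that check.

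Genes were filtered with filterByExpr (minimum count 10), given TMM factors and fitted in edgeR 4.0.16 under R 4.3.3 (quasi-likelihood, two-sided, no covariates). Benjamini-Hochberg adjustment ran over 16086 genes, with 0.05 as the threshold. The standard error is the size of the log2 fold change divided by the square root of F. Alternatives used limma 3.58.1, DESeq2 1.42.0, other scaling factors and filters, robust fitting, replicate number as a block, and each library left out. The edgeR fit without a block was also run on simulated counts of unpaired libraries. Only genes well above the filter were changed there, by more than npc2 or abca1a changed here. That run did not test how changes are recovered at low counts or in paired libraries. Within-library ratios used counts per kilobase and exact permutation tests (scipy 1.17.1).

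The members, lists and rules were chosen with earlier results of these data known. Named genes are the members, up to 4 genes with the smallest p among those called in each pathway list (at least 5 CPM in a genotype), the 2 most abundant liver and enterocyte markers, rraga, mpeg1.1 as the marker of the sort, and those said to be named after their values were seen. The rule also took the 2 most abundant genes of each other marker list, which are given as sums and counts instead. Promoter motifs were to be searched and were not, as no sequence was used here. Counting the gene named lipf as a member was added after the data were seen.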

Additional observations from a re-analysis of the deposited data

Results flagged for a closer look

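In 70 groups of 4 libraries checked (each named gene or ratio in each genotype), 3 held a library far from the other 3, where chance gives about 1 in 20. scarb2c, the LIMP-2 family gene, stood at 585 CPM in mutant library 2, against 399 to 425 CPM in the other mutant libraries. apoa2, an apolipoprotein gene of the liver list, stood at 617 CPM in sibling library 2, against 105 to 149 CPM in the other siblings. tfa, the transferrin gene of the same list, stood at 307 CPM in that library, against 34.4 to 75.5 CPM in the others. None of the 3 was one of the 9 export and efflux genes.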

How the results depend on the processing

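Over the 9 members, 149 of 152 gene results under the alternatives kept their direction and their side of the threshold. The exceptions were apoea without mutant library 2 and scarb1 with replicate number as a block, both given above, and abca1b without mutant library 4 (log2 fold change 0.018, with -0.27 to 0.018 over the libraries left out). abcg1 had no value under the filter of 5 CPM. The gene named lipf turned to -0.020 with library size alone. With the block 2 members were higher, and with each library left out in turn 1 to 2 were lower. Counting the gene named lipf as a member changed neither count. The share of abca1a differed by -10.5 points with the pairing by replicate block kept (exact p = 0.125) and by -11.5 to -9.21 with a library left out. The log2 ratio of npc2 to npc1 differed by 0.98 with the replicate block (exact p = 0.125) and by 0.84 to 1.099 with a library left out. Neither design can reach 0.05: the smallest p is 0.125 for 4 pairs and 0.0571 for 3 against 4 libraries.

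Among sterol transfer genes 1 was lower with the filter of 5 CPM in 4 libraries. Among LXR-related genes 4 were lower with library size alone, with DESeq2 and with the block, and 1 to 4 with a library left out. Among lipoprotein genes 5 were lower with the block and 4 to 11 with a library left out. Among esterification genes 0 to 1 were lower with a library left out, the 1 without mutant library 1. Among cholesterol synthesis genes 1 was higher with upper-quartile factors and with library size alone, 4 with DESeq2, limma-voom and the block, and 0 to 4 with a library left out. The cause was not tested. The block changed no other member's call. abcg1 and apoea rest on few counts in mutants, where depth limits what can be seen.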

Other observations

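Of 26 tested cholesterol synthesis genes 2 rose and 6 fell, with a median log2 fold change of -0.31. So 30.8% were called, close to the 28.4% of all tested genes, and the balance of rises and falls was not tested. hmgcrb, a gene for the rate-limiting HMG-CoA reductase, rose and stood at 187 ± 29.4 CPM in mutants and 128 ± 25.01 CPM in siblings. Its paralog hmgcra, low in level and named after its value was seen, did not pass (log2 fold change -2.21, SE 0.909, edgeR adjusted p = 0.101). idi1, for the isomerase that follows mevalonate, rose and stood at 58.3 ± 21.5 CPM in mutants and 25.5 ± 10.05 CPM in siblings. The genes that fell included cyp51 (7.36 ± 2.51 CPM in mutants and 21.99 ± 5.17 CPM in siblings) and msmo1 (2.33 ± 0.502 CPM in mutants and 5.39 ± 1.56 CPM in siblings), both for enzymes of later steps. The call of hmgcrb was lost under 6 of 17 alternatives and that of idi1 under 1. The number that rose was 0 without sibling library 1, 1 without mutant library 2 or sibling library 5, and 4 without sibling library 2. It was also 4 with replicate number as a block, a fit that called 17.8% of all tested genes as higher.

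Of 10 lists of markers of other cells, the enterocyte list and 2 more had summed levels that did not overlap between genotypes. Among all tested genes, taken singly and not as sums, 31.4% did not overlap. For comparison, edgeR called 28.4% of all tested genes, 14.5% as higher and 13.9% as lower. With replicate number as a block it called 17.8% as higher and 16.6% as lower. DESeq2 called 2858 of the 16086 tested genes higher and 2482 lower, and limma-voom 2438 higher and 2429 lower. The share of all tested genes at an unadjusted p under 0.05 is not given here. Pigment cell markers, a list that includes gpnmb, summed to 3944 to 11794 CPM in mutants and 822 to 3192 CPM in siblings, with 2 of 11 tested genes higher and 0 lower by edgeR (1 lower at an unadjusted p under 0.05, by DESeq2 and by limma-voom, and 4 higher and 1 lower with replicate number as a block). Their median log2 fold change was 0.48, and the part of gpnmb in the sum is not given here. Endothelial markers summed to 378 to 473 CPM in mutants and 253 to 337 CPM in siblings, with 3 of 7 tested genes higher and 1 lower. Microglia markers, a list that includes apoeb, held 4 higher and 4 lower genes of 12 tested, so that 66.7% were called by edgeR. These called genes were named after their values were seen. p2ry12, havcr2, csf1rb and lgals3bpb fell (log2 fold changes -2.39, -2.85, -2.199 and -1.81). hexb, mertka, bhlhe40 and bhlhe41 rose (0.93, 0.75, 1.32 and 3.03). apoeb did not pass, and the part of microglia in its level was not tested. Of the lists whose sums overlapped, epithelial markers held 1 higher and 6 lower of 17, neutrophil markers 2 higher of 7, glia markers 1 lower of 10 (2 with the block) and erythroid markers 1 lower of 7. Muscle markers held 0 called of 17 by edgeR (0 higher and 4 lower at an unadjusted p under 0.05, 3 lower by DESeq2, 1 by limma-voom and 9 with the block). Neuron markers held 0 called of 10 by edgeR (0 higher and 2 lower at an unadjusted p under 0.05, 1 lower by DESeq2 and 1 by limma-voom).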
